A study of Sus scrofa with 10 samples.

Results

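The cells described here carried the transcripts of retinal photoreceptors in libraries labelled as fetal pig entorhinal cells. They were selected on 4 genes: a cell of the 7 fetal whole cell libraries was taken if it held 3 or more UMIs (unique molecular identifiers, each standing for 1 captured transcript) summed over RCVRN, AIPL1, GNGT1 and PRPH2. This gave 99 cells of 24082 fetal whole cells (0.411%), out of 28229 cells in the series. The working description of these cells was photoreceptor-like or pineal-like. Genes of photoreceptors were high in them, whereas BSX, PAX4, ADRB1 and OPN4 of the pineal list had no UMI in the tested libraries. AANAT rested on few UMIs, though above the other cells in each library, and ASMT did not pass the test. LHX4 and GNG13 of the pineal list were higher, and GRK1, ARR3 and OPN1SW of the rod and cone lists had no UMI either. The cells are called photoreceptor-like below as a label, and a pineal program was not tested against a photoreceptor program.

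Photoreceptors are the light-sensing neurons of the retina, rods serving dim light and cones serving daylight and colour. Light acts on an opsin in the outer segment, a stack of membrane discs, and passes through the G protein transducin and a phosphodiesterase to a cyclic nucleotide-gated channel. Melatonin-making cells of the pineal gland share much of this gene set with photoreceptors, including recoverin, arrestin and the transcription factors OTX2 and CRX, so the enzymes of melatonin synthesis and the transcription factors of the eye are needed to describe which of these programs is present.

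Droplet libraries were made from the pig medial entorhinal cortex (MEC), the cortical region that houses the cells of the spatial navigation system. Whole cells were captured at embryonic day (E) 50 in 1 library, at E60 in 3 libraries and at E70 in 3 libraries, and from the adult brain in 1 library, with 1 further library of nuclei at E70 and 1 from the adult. The animals carried no transgene or treatment in the labels. By the labels, E50_1 pooled 3 brains, E60_3 and E70_1 pooled 2 brains each and the other libraries held 1 brain each, so cells of a library cannot be split by animal. The number of pooled brains in the supplementary table of the study differs from the label for E70_1 and E70_3. All 10 libraries are labelled entorhinal, and none is labelled as retina, eye or pineal gland.

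The median number of UMIs per cell lay between 4251 and 9403 in the 7 fetal whole cell libraries, whose cells held between 6314174 and 55755512 UMIs in all. In E70_1 the UMIs were unevenly spread: 20 of its 493 cells had over 40000 UMIs, and 10 of these were among the 26 photoreceptor-like cells, where they held 90.1% of the UMIs. The E70_1 levels below include these cells unless stated, and for genes on which a result turns the level without cells over 40000 UMIs is also given, a line that was drawn after the depths were seen. Of the 99 cells, 5 had a barcode that also occurred in another library, and the cell of that other library had no UMI of the 4 genes in each case. In the series, 901 cells shared a barcode. Scrublet called 262 fetal cells doublets, of which 1 was a photoreceptor-like cell.

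Photoreceptor-like cells were found at E50 and in 2 of the 3 E70 libraries. There were 23 of 5506 cells in E50_1 (0.418%, exact Clopper-Pearson 95% confidence interval 0.265 to 0.626%), 26 of 493 in E70_1 (5.27%, interval 3.47 to 7.63%) and 48 of 3120 in E70_3 (1.54%, interval 1.14 to 2.03%). E70_2 had 1 of 617 cells and E60_3 had 1 of 2696. None of 8171 cells in E60_1 and none of 3479 in E60_2 met the rule, which allows shares of up to 0.0367% and 0.0862%, the shares that 3 cells would make, while the exact intervals reach 0.0451% and 0.106%. The same 3-cell limit was 0.350% for the E70 nuclei, 0.407% for the adult whole cells and 0.118% for the adult nuclei, where no cell met the rule. These intervals and limits cover counting error only.

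**Figure D1:**
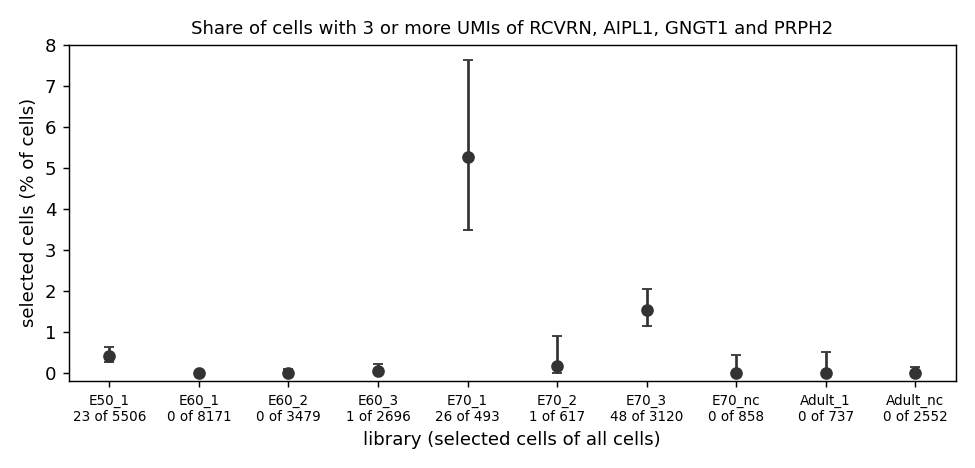
Share of cells (percent, vertical axis) with 3 or more UMIs of RCVRN, AIPL1, GNGT1 and PRPH2 in each of the 10 libraries, with exact 95% binomial intervals as bars. E70_1 (5.27%) and E70_3 (1.54%) stand above E50_1 (0.418%), and 5 libraries are at 0.

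The E60 and E70 whole cells were the only stages with replicate libraries. The mean share was 0.0124 ± 0.0214% at E60 and 2.32 ± 2.65% at E70 (SD, n = 3 libraries each), a difference of 2.31 percentage points. The groups did not overlap, since the highest E60 share was 0.0371% and the lowest E70 share was 0.162%. The two-sided exact permutation test gave p = 0.1, which is the smallest p that 3 against 3 libraries can give. The order of E70_2 over E60_3 rested on 1 cell each. The difference was 1.63 points (p = 0.4, exact permutation test) without cells over 40000 UMIs. It was 1.01 points (p = 0.4, exact permutation test) when each cell with 3000 or more UMIs was thinned to 3000, where E70_2 had none. Cells below 3000 UMIs, among them selected cells of E70_1, were left out there.

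Cells close to the line were mixed. In the fetal whole cell libraries 16 cells had exactly 3 UMIs of the 4 genes and 60 had exactly 2. GNB3, the beta subunit of cone transducin and a gene the rule did not use, had a UMI in 11 of the 16 and in 15 of the 60. The other shared photoreceptor genes summed to a median of 20.9 per 10000 UMIs (range 1.86 to 58.1) just inside the line and to 4.61 (range 0 to 47.8) just outside it. In the 4 libraries with 1 selected cell or none, 16 cells had exactly 2 UMIs of the 4 genes and 1 of these had a UMI of GNB3.

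The single selected cells of E60_3 and E70_2 met the rule through AIPL1 alone. The E60_3 cell had 39478 UMIs, 3 of them of AIPL1, with no UMI of RCVRN, GNB3, OTX2 or SAG and 31 UMIs of the cell cycle gene TOP2A. The E70_2 cell had 109430 UMIs, 4 of AIPL1, 1 of GNB3, none of RCVRN and 47 of TOP2A. A cell of E50_1 was of the same kind, with 26947 UMIs, 3 of AIPL1, none of RCVRN or GNB3 and 40 of TOP2A. Of the 99 cells, 90 had a UMI of GNB3.

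**Figure D2:**
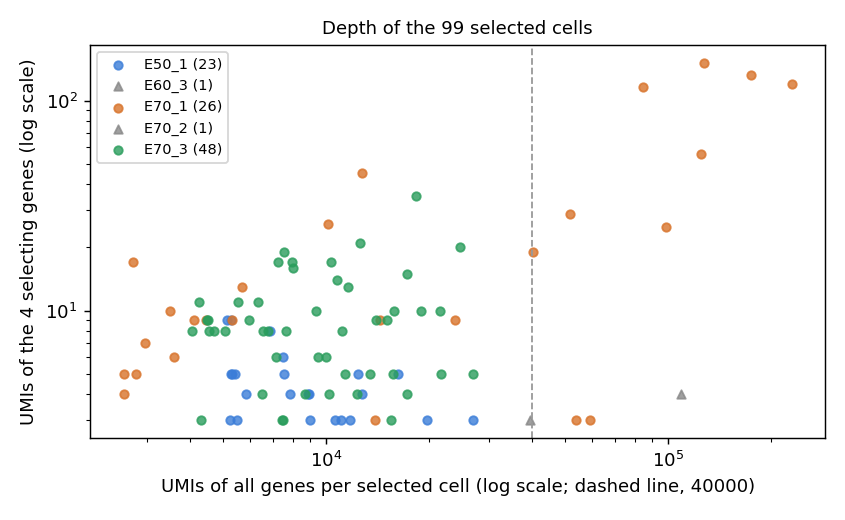
UMIs of all genes (horizontal, log scale) against UMIs of the 4 selecting genes (vertical, log scale) in each of the 99 selected cells, coloured by library. The cells to the right of the dashed line at 40000 UMIs are 10 cells of E70_1 and the cell of E70_2.

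The 4 selecting genes are given as a description, since they chose the cells. RCVRN (recoverin, a calcium sensor of the photoreceptor; Sscrofa11.1 chr12:54740642-54752291) was at 353 CPM (UMIs scaled to a total of 1000000) in the selected cells of E50_1, 380 CPM in E70_1 and 494 CPM in E70_3, against 1.22, 5.82 and 1.02 CPM in the other cells. It had a UMI in 21 of 23, 25 of 26 and 47 of 48 selected cells. AIPL1 (a chaperone of the photoreceptor phosphodiesterase; chr12:50903358-50917187) was at 85.9, 45.6 and 44.4 CPM. PRPH2 (peripherin, which shapes the rim of the discs; chr7:37788547-37805142) was at 40.7 CPM in E50_1, 227 CPM in E70_1 and 170 CPM in E70_3. GNGT1 (the gamma subunit of rod transducin; chr9:73403647-73717746) had no UMI in the 23 cells of E50_1 and was at 71.5 and 181 CPM in E70_1 and E70_3. At E50, then, RCVRN and AIPL1 did most of the selecting, and GNGT1 did none.

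These genes also gave single UMIs in other cells. Cells with 5 or more UMIs of 5 microglial genes, which should lack RCVRN, had a RCVRN UMI in 7 of 136 cells of E50_1 (5.15%), 2 of 18 of E70_1 and 2 of 108 of E70_3 (1.85%), at median depths of 11537.5, 15550 and 9933.5 UMIs. The selected cells reached 91.3, 96.2 and 97.9% at median depths of 7852, 13374.5 and 9436.5 UMIs. All unselected cells had a RCVRN UMI in 1.17, 6.42 and 0.781%. GNGT1 had a UMI in 12.5, 5.56 and 13.0% of these microglial cells and in 0.748, 1.71 and 1.17% of all unselected cells.

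GNB3 (chr5:63863656-63871352) was at 484 CPM in the selected cells of E50_1, 335 CPM in E70_1 and 526 CPM in E70_3. The other cells of these libraries had 2.59, 8.73 and 2.96 CPM. GNB3 was at 572 CPM in E70_1 without cells over 40000 UMIs. Cells with 3 or more UMIs of GNB3 numbered 23 in E50_1, 20 in E70_1 and 37 in E70_3, and 15, 19 and 35 of these were among the selected cells, so GNB3 alone marked largely the same cells at E70. No cell of the 3 E60 libraries, E70_2, the nuclei or the adult had 3 UMIs of GNB3.

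The genes that the rule did not use were compared between the selected cells and all other cells of the same library, in the 3 libraries with 10 or more selected cells. Raw UMIs were summed over the cells of each kind, and edgeR's quasi-likelihood test was fitted with the library as a block over 14156 genes. Of these, 409 were higher in the selected cells (2.89% of the genes tested) and 484 were lower (3.42%) at a Benjamini-Hochberg adjusted p under 0.05. The median log2 fold change of all genes tested was -0.13. The cells were picked for photoreceptor transcripts, and cells with more UMIs reach the line more easily, so the p-values measure how evenly a gene followed the selection over 3 libraries.

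Most of the tested genes shared by rods and cones were higher. Of 30 genes of this list in the files beside the selecting genes, 24 passed the filter on low counts and 17 of these were higher, none lower, with a median log2 fold change of 2.94. The share higher over all genes tested was 2.89%. The filter can keep a low gene through the selected cells alone, so the genes that passed are not the whole list. Without cells over 40000 UMIs 19 were higher. OTX2, the homeodomain factor that starts photoreceptor fate, was at 167, 173 and 164 CPM in the selected cells of E50_1, E70_1 and E70_3, against 7.36, 5.63 and 1.76 CPM in the others. Its log2 fold change was 5.06 ± 0.37 (SE; edgeR adjusted p = 1.86e-08). The filter may have kept OTX2 through the selected cells alone, so this p-value is a description. CRX, the partner of OTX2 in photoreceptors, had 0, 1 and 4 UMIs in the selected cells of the 3 libraries and was not tested.

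TULP1, which serves transport to the outer segment, was at 267, 105 and 235 CPM in the selected cells and at 1.15, 5.05 and 2.23 CPM in the others. RAX2, a retinal homeodomain factor, was at 67.8, 89.5 and 199 CPM, against 0.450, 4.27 and 0.329 CPM. PDC, phosducin, which binds the transducin beta and gamma subunits, was at 13.6 CPM in E50_1, 120 CPM in E70_1 and 71.4 CPM in E70_3 and below 1 CPM in the other cells of each library. The E70_1 levels without cells over 40000 UMIs were 208 CPM for TULP1, 182 CPM for RAX2 and 259.9 CPM for PDC. These genes were low in the other cells, so the filter may have kept them through the selected cells alone. IMPG1, a proteoglycan of the matrix around photoreceptors, rose by 3.63 ± 0.43 on the log2 scale, and IMPG2 by 3.14 ± 0.37. PROM1, of the disc membranes, was at 226, 398 and 486 CPM. The unselected cells of E70_1 held 234 CPM of PROM1, against 18.9 and 32.0 CPM in E50_1 and E70_3, so the contrast of PROM1 was smallest there.

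Genes of the rod and the cone lists were both raised. Of the rod list, 9 of 15 genes passed the filter and 8 were higher, with a median log2 fold change of 3.98. Of the cone list, 9 of 14 passed and 7 were higher, with a median of 3.88. No gene of either list was lower. Of all genes tested, 2.89% were higher. The filter can keep a low gene through the selected cells alone, as may hold for NR2E3 and NRL. These counts and medians are therefore a description.

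SAG, rod arrestin, was at 40.7 CPM in the selected cells of E50_1 (exact Poisson 95% interval 18.6 to 77.3), 660 CPM in E70_1 and 825 CPM in E70_3. The other cells held 11.2, 77.6 and 17.0 CPM. The E50 selected cells were lowest and both E70 libraries were high. SAG rose by 3.52 ± 0.49 on the log2 scale (edgeR adjusted p = 8.29e-05). ROM1, the partner of peripherin at the disc rim, was also lowest in E50_1, with 27.1, 188 and 208 CPM. E70_1 held 1386 CPM of SAG and 277 CPM of ROM1 without cells over 40000 UMIs, above E70_3 in both. SAMD7, a regulator of rod genes, had 18.1, 66.3 and 106 CPM and SAMD11 58.8, 107 and 46.3 CPM. PDE6A, the alpha subunit of the rod phosphodiesterase, was at 58.8, 58.5 and 96.4 CPM, and CASZ1, a transcription factor, at 99.5, 116 and 96.4 CPM. NR2E3 and NRL, the receptor and the leucine zipper factor that set rod fate, were low in UMIs: NR2E3 had 1, 77 and 9 UMIs and NRL 1, 5 and 10 UMIs in the 3 libraries. The other cells held at most 1.36 CPM of either gene, so the filter on low counts may have kept both through the selected cells alone, and their fitted log2 fold changes of 6.16 ± 0.67 for NR2E3 and 3.98 ± 0.89 for NRL are given as a description. NRL had no UMI in the E70_1 cells up to 40000 UMIs and was not tested there. GNB1, a transducin subunit that most cells express, was at 181, 362 and 247 CPM in the selected cells and at 245, 165 and 208 CPM in the others (log2 fold change 0.11 ± 0.30; edgeR adjusted p = 0.906). GRK1, a kinase of photoreceptor opsins, had no UMI.

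RXRG, a nuclear receptor of cones, was highest where SAG was lowest, with 502 CPM in E50_1 (interval 413 to 605), 85.2 CPM in E70_1 and 220 CPM in E70_3. In the other cells it was at 8.72, 53.6 and 22.7 CPM. The E70_1 level of RXRG without cells over 40000 UMIs was 139 CPM. The change was 3.02 ± 0.56 on the log2 scale (edgeR adjusted p = 0.00149). THRB, the thyroid hormone receptor that sets cone opsin choice, was at 371, 251 and 390 CPM, against 42.8, 131 and 97.8 CPM. CNGA3 and CNGB3, the 2 subunits of the cone channel, rose by 4.32 ± 0.44 and 4.07 ± 0.52. CNGB3 was also at 130 CPM in the unselected cells of E70_1, compared with 3.89 and 11.6 CPM in those of E50_1 and E70_3. PDE6C, the cone phosphodiesterase, was at 154, 22.4 and 50.1 CPM. SLC24A2, a cation exchanger of cones that neurons also use, was at 109, 80.1 and 82.9 CPM against 47.6, 68.1 and 74.0 CPM (0.25 ± 0.26; edgeR adjusted p = 0.694). ARR3, cone arrestin, and OPN1SW, the blue opsin, had no UMI in the selected cells of the 3 libraries.

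**Figure D3:**
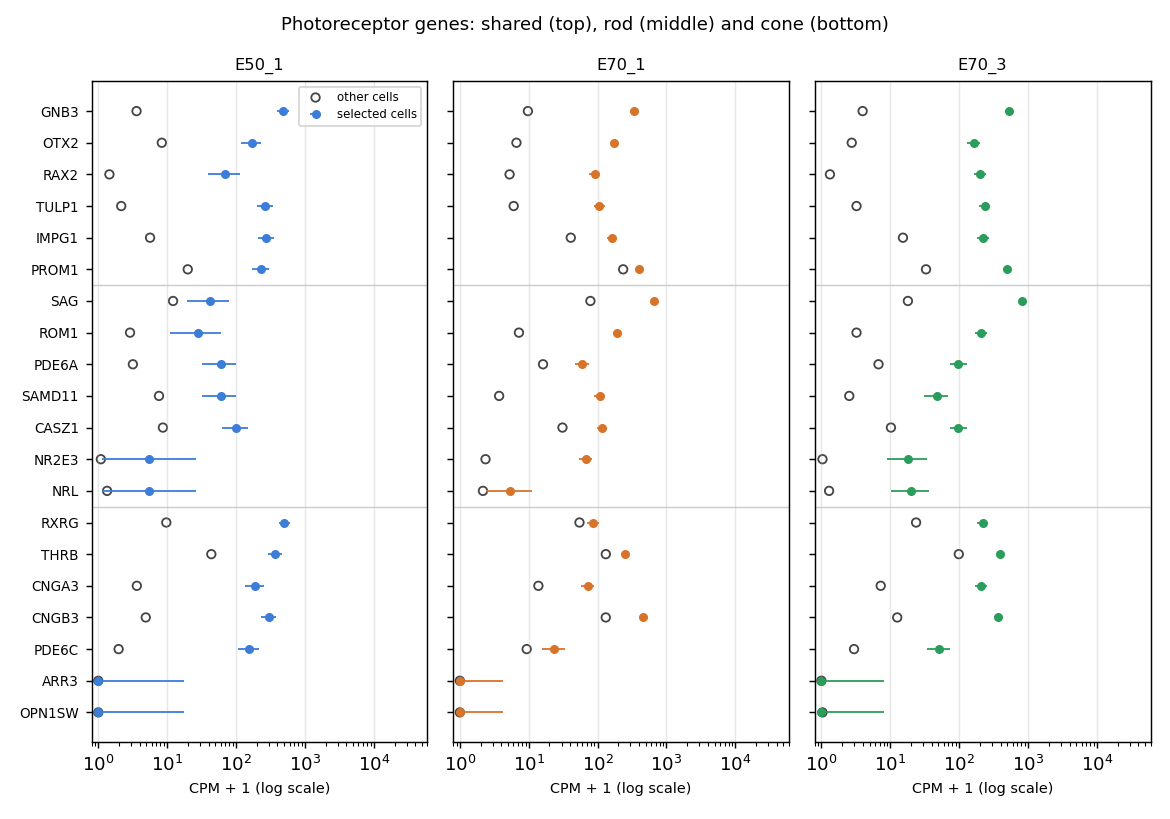
CPM + 1 (log scale, horizontal) of photoreceptor genes in the selected cells (filled, with exact Poisson 95% intervals) and all other cells (open) of the 3 libraries with 10 or more selected cells. SAG is higher in E70_1 (660 CPM) and E70_3 (825 CPM) than in E50_1 (40.7 CPM), RXRG is highest in E50_1 (502 CPM), and ARR3 and OPN1SW lie at 0 in the selected cells.

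In single cells, the rod list (13 genes) and the cone list (13 genes), each without the selecting genes and genes on both lists, were summed per 10000 UMIs. GNB1, which most cells express, was also left out of the rod list, while SLC24A2 stayed on the cone list. At E50 the cone sum was the larger in nearly every cell: the rod median was 3.23 (range 0 to 9.07) and the cone median was 29.0 (range 0.371 to 48.5), and the rod sum was above the cone sum in 1 of 23 cells. In E70_1 the medians were 17.2 and 14.5 and the rod sum was larger in 12 of 26 cells. In E70_3 they were 13.7 and 17.9 and it was larger in 24 of 48 cells. Among the 16 cells of E70_1 up to 40000 UMIs it was larger in 10. With GNB1 and the genes on both lists kept, the rod medians were 5.13, 23.0 and 17.7 in E50_1, E70_1 and E70_3. The cone medians were then 29.0, 14.5 and 17.9. The counts of cells with the larger rod sum were not made with GNB1.

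The cells of E70_3 were a mixture by these genes. Of 48 cells, 25 had 2 or more UMIs of SAG and fewer than 2 of RXRG, 7 had 2 or more of RXRG and fewer than 2 of SAG, 15 had 2 or more of both and 1 had neither. At E50, 19 of 23 cells had RXRG only, 1 had SAG only, 1 had both and 2 had neither. In E70_1, 12 of 26 cells had SAG only, 2 RXRG only, 11 both and 1 neither. Among the E70_1 cells up to 40000 UMIs, 2 had both, so most cells with both in that library were the large ones. The line of 2 UMIs was not scaled to depth. In the unselected cells of E70_1, SAG had a UMI in 51.0% and RXRG in 40.9%. A large cell with both therefore cannot be told apart from one that passed the line by its depth. The stages could not be tested against each other within the photoreceptor-like cells, since E50 had 1 library.

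**Figure D4:**
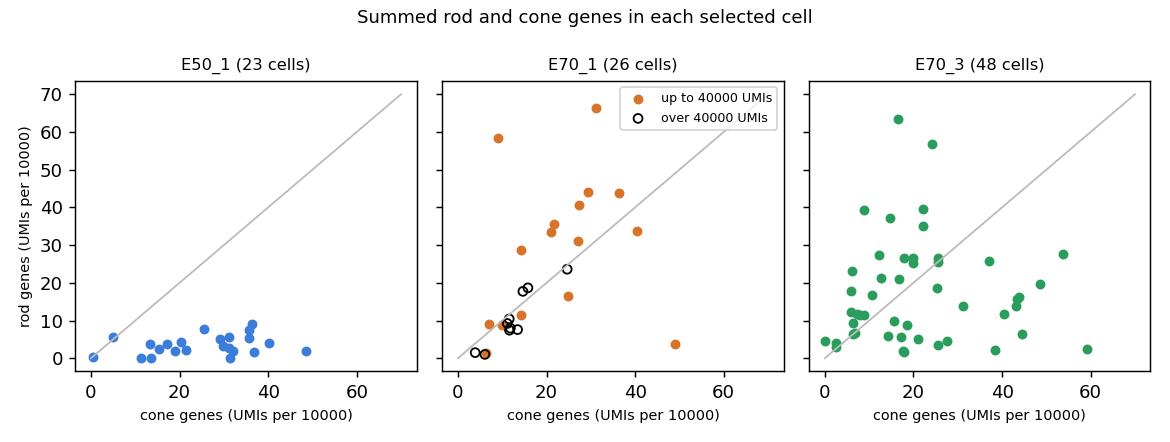
Summed rod genes without GNB1 (vertical) against summed cone genes (horizontal), both in UMIs per 10000, in each selected cell of E50_1, E70_1 and E70_3. The grey line marks equal sums and open circles are cells over 40000 UMIs. The E50_1 cells lie low along the cone axis (1 of 23 above the line), whereas 24 of 48 cells of E70_3 lie above the line.

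Of 20 factors of photoreceptor fate 13 were tested, of which 12 were higher and none lower, with a median log2 fold change of 3.37. The share higher over all genes tested was 2.89%. Without cells over 40000 UMIs 10 were higher. The 12 include OTX2, RAX2, RAX, NRL and NR2E3, which the filter may have kept through the selected cells alone. RORB, an orphan receptor of early photoreceptors that cortical layers also express, was the most abundant at 724, 994 and 845 CPM, against 74.0, 82.9 and 130 CPM in the other cells. NEUROD1 was at 244, 103 and 397 CPM against 35.1, 23.1 and 19.5 CPM, and NEUROD4 rose by 3.37 ± 0.34. E70_1 held 537 CPM of RORB and 217 CPM of NEUROD1 without cells over 40000 UMIs. PRDM1, which holds photoreceptor precursors back from the bipolar fate, was at 194, 68.9 and 75.2 CPM, against 5.78, 6.60 and 9.66 CPM. ISL2 and ONECUT1 were higher in the selected cells of E50_1 than in those of both E70 libraries, a difference that was not tested: ISL2 was at 199 CPM in E50_1 (interval 145 to 267) and at 1.72 and 1.93 CPM in E70_1 and E70_3, and ONECUT1 at 285 CPM in E50_1 and at 6.89 and 7.71 CPM at E70. ISL2 had a UMI in 21 of 23 cells at E50 and in 1 cell of each E70 library. ONECUT1 passed the test over the 3 libraries (2.36 ± 0.60; edgeR adjusted p = 0.0209), yet in E70_1 the other cells had 5.43 CPM. OLIG2, NEUROG2 and BHLHE22 had no UMI.

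Genes of the later steps of photoreceptor function were divided. Over all genes tested, 2.89% were higher and 3.42% lower. The filter may have kept low genes of these lists through the selected cells alone. Of 15 phototransduction genes tested, 9 were higher and none lower, among them RGS9 (1.87 ± 0.34), which ends the transducin signal, and GNB5 (1.10 ± 0.28), its partner. Of 17 genes of the outer segment and its cilium, 11 were higher. MAK, a kinase of the photoreceptor cilium, was at 289, 125 and 523 CPM against 7.67, 21.3 and 18.6 CPM. Of 20 genes of the ribbon synapse, the release site of photoreceptors and bipolar cells, 9 were higher, including CPLX3 (4.97 ± 0.33), CPLX4 (2.85 ± 0.55) and LRIT1 (4.22 ± 0.67), and CABP4, ELFN1 and ELFN2 had no UMI. CPLX3 was at 63.3, 96.4 and 106 CPM in the selected cells and at 1.21, 3.88 and 2.60 CPM in the others. The visual cycle list had 2 of 9 tested genes higher, RBP3 (6.58 ± 0.89), the retinoid carrier between cells, and ABCA4 (2.74 ± 0.31), the retinoid flippase of the discs. RBP3 rested on few UMIs, and most of those in E70_1 lay in cells over 40000 UMIs. RLBP1, the retinoid-binding protein of Müller glia, was at 99.5, 395 and 19.3 CPM against 19.4, 76.7 and 30.8 CPM and did not pass the test (edgeR adjusted p = 0.0532). In E70_1 its level was 121 CPM without cells over 40000 UMIs.

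The promoters of some of these genes are shown because their transcripts rose together in the selected cells. The letters TAATCC and their reverse complement GGATTA, the core that OTX2 and CRX are known to bind, were searched in the 250 bases before the RefSeq start (build Sscrofa11.1) of 19556 protein-coding genes. They occurred in 1056 of these windows (5.4%), in 4 of 37 genes of the shared photoreceptor list, 5 of 18 of the rod list, 2 of 14 of the cone list and 0 of 18 of the pineal list, and in 28 of the 361 matched genes that were higher (7.76%) and 19 of the 415 that were lower (4.58%). None of the windows of RCVRN, AIPL1, GNGT1, PRPH2 and GNB3 held them, which says only that these letters are not in those 250 bases. The windows of SAG and NR2E3, which held the letters and were higher in the selected cells, are given 5′ to 3′ on the strand of the gene, with the match in capitals. The match starts 123 bases before the start of SAG (chr15:133704725-133704974, plus strand) and 24 bases before that of NR2E3 (chr1:169358412-169358661, plus strand).
SAG: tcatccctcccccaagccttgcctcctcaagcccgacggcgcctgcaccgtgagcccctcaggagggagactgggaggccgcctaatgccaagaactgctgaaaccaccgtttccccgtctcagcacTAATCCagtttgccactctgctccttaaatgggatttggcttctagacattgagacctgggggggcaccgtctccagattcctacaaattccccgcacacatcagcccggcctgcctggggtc
NR2E3: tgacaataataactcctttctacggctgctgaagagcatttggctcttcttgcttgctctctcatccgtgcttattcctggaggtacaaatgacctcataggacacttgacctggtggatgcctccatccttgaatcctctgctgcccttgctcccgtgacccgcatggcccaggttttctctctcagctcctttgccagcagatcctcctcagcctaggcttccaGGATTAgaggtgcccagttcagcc
A match is a description of the letters and not a measured binding site.

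Transcription factors of the eye were present. Of the enzymes of melatonin synthesis, AANAT had few UMIs and ASMT did not pass the test. SIX6, an eye field and retinal progenitor factor, was at 339, 83.5 and 179 CPM in the selected cells and at 3.33, 2.91 and 3.55 CPM in the others (5.55 ± 0.32; edgeR adjusted p = 7.98e-10). SIX3 was at 90.4, 48.2 and 46.3 CPM (3.93 ± 0.40) and RAX at 58.8, 11.2 and 7.71 CPM (4.51 ± 0.71). SIX6 was low in the other cells, so the filter on low counts may have kept it through the selected cells alone. The p-value of SIX6 is therefore a description, and the same limit may hold for SIX3 and RAX. In E70_1 SIX6 and RAX were carried in part by the large cells: without cells over 40000 UMIs SIX6 was at 26.0 CPM and RAX had none. SIX3 was at 43.3 CPM without them, close to its level with them. SIX6 had a UMI in 19 of 23 cells of E50_1, 9 of 26 of E70_1 and 32 of 48 of E70_3.

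Of 19 pineal genes in the files 11 were tested, 2 were higher and 1 lower, with a median log2 fold change of 0.20. Over all genes tested, 2.89% were higher and 3.42% lower. AANAT, which makes the rhythm of melatonin, had 4, 1 and 1 UMIs in the selected cells of the 3 libraries, or 18.1 CPM in E50_1 (interval 4.93 to 46.3), 0.861 CPM in E70_1 and 1.93 CPM in E70_3, and was not tested. The other cells held 0.576, 0.388 and 0.0732 CPM of AANAT, below the selected cells in each library, and E70_1 had none in the selected cells up to 40000 UMIs. ASMT, the last enzyme of melatonin synthesis, was at 4.52, 7.75 and 30.9 CPM, against 3.28, 11.6 and 5.27 CPM (0.81 ± 0.59; edgeR adjusted p = 0.515). ASMT had 1, 9 and 16 UMIs in the selected cells of the 3 libraries. In E70_1 ASMT was below the other cells with the large cells and above them without, at 17.3 CPM, and it was higher than the other cells in E70_3. LHX4 was at 36.2, 49.9 and 25.1 CPM, against 1.75, 23.3 and 4.76 CPM (2.03 ± 0.46), and GNG13 rose on 1, 5 and 6 UMIs, with none in E70_1 without cells over 40000 UMIs. CRYM, a thyroid hormone-binding protein, fell by 1.91 on the log2 scale. PDE10A was at 122, 281 and 164 CPM against 135, 353 and 235 CPM, GCH1 at 109, 42.2 and 36.6 against 22.3, 42.1 and 15.9 CPM, and CHRNA3 at 31.7, 4.31 and 3.86 against 4.57, 2.91 and 4.17 CPM, and none of the 3 passed the test.

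**Figure D5:**
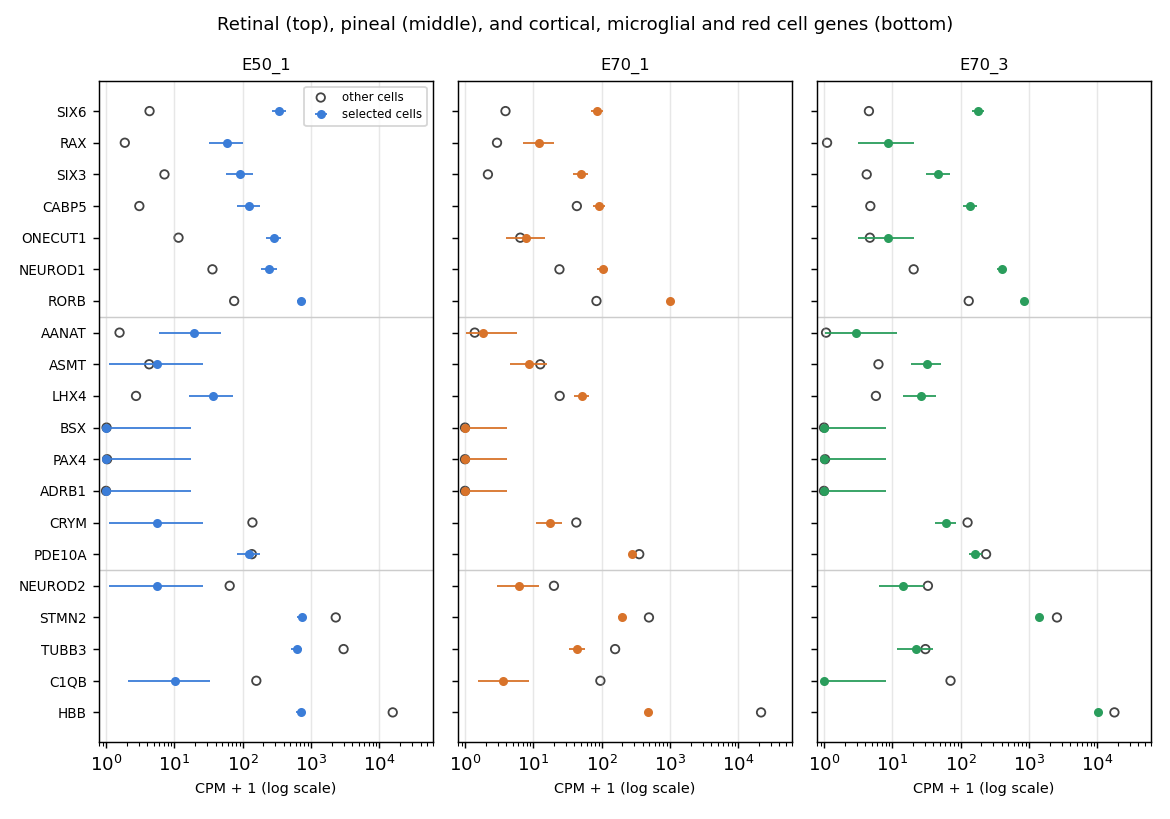
CPM + 1 (log scale, horizontal) of retinal genes and fate factors, pineal genes, and cortical, microglial and red cell genes in the selected cells (filled, with exact Poisson 95% intervals) and all other cells (open) of 3 libraries. SIX6 lies well to the right of the other cells in each library, BSX, PAX4 and ADRB1 lie at 0, and STMN2 and NEUROD2 lie to the left of the other cells.

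Markers of other retinal cells were raised in part. Over all genes tested, 2.89% were higher and 3.42% lower. Of 10 bipolar genes tested 5 were higher, among them ISL1, CABP5 (122, 90.4 and 137 CPM against 2.07, 42.3 and 3.77), GRM6 (4.83 ± 0.70) and NETO1 (1.26 ± 0.30). NETO1 lost its call without E70_1 (edgeR adjusted p = 0.0716), without E70_3 and at 2 or more UMIs, and GRM6 had no UMI in E70_1 without cells over 40000 UMIs. GRIK1 (54.3, 497 and 241 CPM against 76.0, 266 and 178), PRKCA (-0.28 ± 0.26) and CA10 (0.04 ± 0.33) did not pass, and BHLHE23 had no UMI. Of 10 amacrine and horizontal genes SLC6A9 (2.19 ± 0.28), a glycine transporter, and ONECUT1 were higher, while ONECUT2, PROX1, GAD1 and GAD2 did not pass. Of 9 ganglion cell genes ISL1 was higher and GAP43 (-1.81 ± 0.27), ELAVL4 (-2.08 ± 0.27) and THY1 (-1.63 ± 0.36), which cortical neurons also express, were lower. NEFL, SNCG, EBF1 and RBPMS did not pass the test, and POU4F1 had no UMI. Of 15 genes of retinal progenitors and Müller glia 4 were higher, among them RAX, SIX3 and SIX6. Of this list 3 were higher and 4 lower without cells over 40000 UMIs. CLU, PAX2, SFRP2 and DKK3 did not pass, and HES5 and FGF19 had no UMI. SFRP2 was called higher in 6 of the alternative settings, RLBP1 higher in 5 and EBF1 lower in 7. SFRP2 was at 67.8, 433 and 9.64 CPM against 51.3, 18.8 and 13.1 CPM, and at 60.6 CPM in E70_1 without cells over 40000 UMIs. The pigment epithelium list had none of 10 tested genes called in either direction, with MITF, BEST1, OCA2, DCT and TYR among them. The lens and cornea list had none of 6 called.

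Most called genes of the cell types expected in the MEC were lower, where 3.42% of all genes tested were lower. Of 13 pan-neuronal genes 8 were lower: STMN2 was at 733, 195 and 1421 CPM, against 2298, 491 and 2567 CPM (-1.53 ± 0.29), and TUBB3 fell by 2.03. Of 11 genes of cortical excitatory neurons 5 were lower, such as NEUROD2 (4.52, 5.17 and 13.5 CPM against 63.5, 19.0 and 32.2). SLC17A7, a vesicular glutamate transporter that photoreceptors also use, was the exception at 22.6, 30.1 and 57.9 CPM, against 3.51, 0.970 and 10.0 CPM (2.95 ± 0.49). SST and NPY of the interneuron list were lower and DLX2 had no UMI. Of 9 microglial genes 7 were lower, with a median log2 fold change of -3.07, and C1QB had 2, 3 and 0 UMIs in the selected cells of the 3 libraries. Of 5 erythroid genes 4 were lower. HBB was at 701, 475 and 10332 CPM against 15675, 21492 and 17792 CPM, and 5291 of the 5358 HBB UMIs of the selected cells of E70_3 lay in 1 cell. COL1A1 and COL3A1 of the vascular list, GFAP, OLIG1, PCNA and MCM5 were lower, and SLC1A2, a glutamate transporter of glia and photoreceptors, was higher (1.25 ± 0.26). Without cells over 40000 UMIs 8 genes of the astroglial list and 5 of the vascular list were lower, against 1 and 2 with them, and OLIG1 and PCNA lost their calls. OTX2, which is also on the choroid plexus list, was higher and FOLR1 lower, and TTR was at 0, 6.89 and 3.86 CPM.

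Outside the lists, the 20 genes with the largest rise that was seen in all 3 libraries included several known from photoreceptors. RD3, which holds guanylate cyclase in check, was at 149, 74.9 and 106 CPM against 2.05, 9.70 and 1.65 CPM (4.78 ± 0.45). CERKL was at 493, 242 and 287 CPM against 8.77, 136 and 9.77 CPM (3.70 ± 0.60), and CLUL1, a clusterin relative of cones, at 54.3, 166 and 305 CPM against 2.23, 73.6 and 5.60 CPM. RTBDN, retbindin, rose on low counts (4.12 ± 0.74). TRPC7, a cation channel, was at 226, 278 and 388 CPM against 17.3, 24.1 and 16.2 CPM (3.70 ± 0.28). ACKR4 (6.36 ± 0.57), a scavenging chemokine receptor, KLC3 (6.52 ± 0.78), a kinesin light chain, and SERPINA1 (5.75 ± 0.62), a protease inhibitor, were at 0.0366 to 1.16 CPM in the other cells of each library, so the filter on low counts may have kept them through the selected cells alone. TMEM244, DEFB128, NRN1L, TMEM52B, LRIT2, TNNT1 and DUSP26 completed the named ones, with log2 fold changes of 3.46 to 5.21. In the other cells of each library TMEM244, DEFB128, NRN1L, TMEM52B and LRIT2 were at 0.108 to 1.55 CPM and RTBDN at 0.194 to 0.666 CPM. The filter may have kept these genes, RD3 and CLUL1 through the selected cells alone as well. LRIT2 was not tested without cells over 40000 UMIs. Of 5 genes with an Ensembl identifier in place of a symbol, ENSSSCG00000040295 was at 31.7, 105 and 189 CPM against 1.06, 3.49 and 1.39 CPM and ENSSSCG00000035649 at 176, 103 and 210 CPM against 18.0, 4.85 and 6.59 CPM.

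The 10 genes with the largest fall seen in all 3 libraries were low in the selected cells of each, and all but SPP1 lost their call when the line was drawn at 2 or more UMIs. CCL3L1, RGS1, ZNF503, INKA1 and IER3 had no UMI in the selected cells of the 3 libraries. Against a floor of 3 UMIs over all these cells (1.58 CPM), the pooled others were at least 9.73-fold higher for CCL3L1, 5.41-fold for INKA1, 4.37-fold for IER3, 4.03-fold for ZNF503 and 3.10-fold for RGS1. At 2 or more UMIs the log2 fold change was 0.52 for ZNF503 and 0.47 for INKA1, and RGS1, ZNF503, INKA1 and IER3 were not tested without cells over 40000 UMIs. SPP1, osteopontin, which fetal microglia express, was at 36.2, 14.6 and 5.79 CPM against 397, 178 and 391 CPM (-4.38 ± 0.38). CCL2, ICAM1, FCER1G and GPR34 were at 0 to 1.93 CPM in the selected cells of each library and at 7.63 to 44.4 CPM in the others.

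Over the 3120 single cells of E70_3, the library with most selected cells, the genes outside the rule whose log-scaled counts followed the summed selecting genes most closely were GNB3 (Pearson r = 0.729), RAX2 (0.687), ROM1 (0.649), TULP1 (0.601), PDC (0.592), OTX2 (0.585), SAG (0.582), CLUL1 (0.568), SAMD7 (0.553) and ENSSSCG00000014186 (0.528). These cells share a library and the counts are sparse, so the values describe this library only. Of the 10 genes, 7 are on the shared photoreceptor or rod lists beside GNB3. The ranking follows the genes that chose the cells, so this count is a description.

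The number of genes detected was compared at an equal depth of 2500 UMIs per cell. The median was 1696 genes in the selected cells and 1519 in the others of E50_1, 1717 and 1673 in E70_1, and 1693 and 1528 in E70_3, and no cell fell below that depth. Without thinning, the medians were 3931 and 3448, 5164 and 4118, and 4054 and 2975 genes. Because UMIs of a group of cells were summed and scaled, a lower level of a gene and a smaller share of cells that express it cannot be told apart in these values.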

How the data were processed

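The authors dissociated fetal and adult pig MEC tissue, captured cells or nuclei with 10x Genomics 3′ version 2 chemistry and mapped reads to Sscrofa11.1 with Cell Ranger, per the labels and the study's methods, with introns counted. They deposited 1 table of raw UMI counts per library, without normalization. Rows named only by Ensembl identifiers were matched to symbols (987 of 7482). The cells, gene lists and tests used here were chosen with earlier results of these data known. UMI counts were summed over selected cells and over all other cells of each library with 10 or more selected cells and tested with edgeR 4.0.16 in R 4.3.3 (filterByExpr, TMM, quasi-likelihood, library as a block), with Benjamini-Hochberg adjustment over all genes tested. The 4 selecting genes were left out of the test. In data simulated from these libraries (13643 genes) the test called 98% of genes raised by 3 on the log2 scale and 91.1% of genes lowered by 3. It called 82% of genes raised by 2 and 53.5% of genes lowered by 2. The simulated counts had the same set dispersion for every gene, so these percentages hold for that setting. Shares have exact Clopper-Pearson intervals and UMI sums exact Poisson intervals, at 95%. The shares of E60 and E70 were compared by a two-sided exact permutation test. Doublets were called with Scrublet in scanpy 1.11.5 and kept, cells were not clustered, and nothing says which cells of pooled libraries came from which brain. The replicates are libraries, whose dissection could differ. Named genes were the selecting genes and GNB3, the 6 most abundant of each photoreceptor, rod, cone, pineal, retinal and fate factor list, list genes without a UMI, and the 20 and 10 other called genes with the largest rise and fall in all libraries, and the 10 most like the selecting genes. Some items that this rule names are not reported here. List genes beyond these were picked as examples after their values were seen. Alternatives covered size factors, DESeq2 1.42.0, filters, thresholds, comparison cells and left-out libraries.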

Additional observations from a re-analysis of the deposited data

Results flagged for a closer look

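For 8 named genes the difference between photoreceptor-like and other cells, as the log2 ratio of CPM + 1, went one way in the single E50 library and the other way in both E70 libraries. This difference between stages was not tested, since E50 had 1 library, and none of the 8 passed the test over the 3 libraries. SNCG (1.96 in E50_1, -2.29 in E70_1 and -1.11 in E70_3) and RBPMS (1.47, -0.31 and -1.61) of the ganglion cell list were higher at E50. MITF (1.70, -0.08 and -0.30) and OCA2 (1.71, -0.36 and -0.59) of the pigment epithelium list were also higher at E50. GNB1 (-0.44, 1.13 and 0.25), GRIK1 (-0.48, 0.90 and 0.43), PAX2 (-0.92, 0.03 and 0.10) and BEST1 (-0.35, 1.34 and 1.15) were lower at E50.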

How the results depend on the processing

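The main comparison called 409 genes higher and 484 lower. Leaving out 1 library at a time gave 183 to 441 higher and 144 to 515 lower, and both lowest counts were without E70_3, while 321 were lower without E50_1. Without cells over 40000 UMIs 874 were lower. Without the filter on low counts 793 were lower, and 313 were when the comparison cells had no UMI of the selecting genes. Without the library block, which sets the 2 sums of a library against each other, 5 genes were higher and 0 lower by edgeR, with 418 and 515 at an unadjusted p under 0.05. DESeq2's Wald test called 421 and 344, and RXRG no longer passed there. The setting without cells over 40000 UMIs and the comparison with cells free of the selecting genes were added after seeing the data. ONECUT1 turned to -0.54 on the log2 scale when cells were selected at 3000 UMIs, and lost its call without E50_1. Selection at 3000 UMIs left 7 cells in E50_1, so that setting held only E70_1 and E70_3. With 2 or more UMIs ZNF503 turned to 0.52 and INKA1 to 0.47. At 2 or more UMIs 549 of the 893 called genes were called again and 38 had the opposite sign. The other named genes that changed direction were not called in the main comparison. Without cells over 40000 UMIs GRIK1 was at -0.13, CA10 at -0.12, SNCG at 0.89, RBPMS at 0.24, DKK3 at -0.60 and OCA2 at 0.25. With 2 or more UMIs CA10 was at -0.18, SNCG at 0.13, EBF1 at 0.025 and RBPMS at 0.47, and with 5 or more CHRNA3 was at -0.048. CA10 was at -0.059 without the filter, -0.073 against neuronal cells and -0.039 against cells free of the selecting genes, where SNCG was at 0.21. Selected at 3000 UMIs, and so without E50_1, GAD2 was at 0.68 and MITF at -0.25. GAD2 was at 0.052 with DESeq2 by size factors or Wald test, 0.025 without doublet calls and 0.0097 without shared barcodes, and SNCG was at 0.021 by size factors. Without the library block SNCG was at 0.92 and DCT at 0.036. Leaving out libraries, the values ranged from -0.35 to 0.56 for GNB1, -0.53 to 1.88 for ASMT, -0.16 to 0.53 for GRIK1, -0.41 to 0.35 for CA10, -0.17 to 0.10 for GAD2, -2.17 to 0.73 for SNCG, -0.86 to 0.25 for RBPMS, -0.25 to 2.76 for SFRP2, -0.52 to 0.93 for DKK3, -0.31 to 0.46 for MITF and -0.54 to 0.22 for OCA2. The cause of these changes was not tested. The share at E70 stayed above that at E60 in every setting run, by 0.838 to 3.39 percentage points with a library left out. With a replicate block over same-numbered libraries the difference was 2.31 points (exact sign-flip test, p = 0.25, the smallest it can give), and since the numbers share no stated animal, litter or day, this is no paired design. Depth limits low genes most: 3 UMIs over the selected cells of the 3 libraries make 1.58 CPM, so CRX and AANAT rest on few UMIs.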
